A study of Mus musculus with 12 samples.

Results

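The genes described here act in mitosis, the division of a replicated nucleus into daughter nuclei, and were followed in cultured muscle cells under 2 agents linked to cancer cachexia. They were chosen as a list of 33 symbols, of which 32 had a row among the 21187 genes of the arrays. The cyclin gene Ccnb1 was the symbol without a row and was not analysed here. C2C12 is a mouse myoblast line that fuses into multinucleated myotubes, and the cultures had differentiated for 3 days. In the LIF experiment, cultures were left untreated or received LIF (mouse leukemia inhibitory factor, a relative of interleukin-6 that activates STAT3) at 10 ng/ml. In the C26 experiment, other cultures were left untreated or received medium conditioned by C26 cells, a mouse colon carcinoma line used to model cachexia, as 1 part in 3. Each experiment had its own untreated cultures at 4, 8 and 24 h, and each of the 12 arrays took the pooled RNA of 3 wells. Every combination of experiment, arm and time was thus 1 array, so the number of arrays limits the precision, a difference at a single time has no replicate check, and the spread between wells was not measured. All groups came from 1 cell line, and differentiated C2C12 cultures are known to keep some mononucleated cells that have not fused.

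In a dividing cell, the kinase Cdk1 with its A- and B-type cyclins starts mitosis, Aurora and Polo kinases build the spindle, and kinetochores tie chromosomes to its microtubules. The spindle checkpoint holds back the anaphase-promoting complex until each kinetochore is attached, and kinesins and midzone proteins then separate the chromosomes and divide the cell. Transcription of most of these genes peaks late in the cell cycle under the MYB-MuvB complex and FOXM1, and falls when cells leave the cycle. Nuclei of myotubes have left the cycle for good, whereas unfused myoblasts can divide. In RNA of a whole culture, fewer dividing cells and less of a transcript per cell cannot be told apart.

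All values are log2 expression values of the deposited table, in which the LIF experiment is rounded to 1 decimal and the C26 experiment to 2 decimals. The median log2 level over all genes was between 6 and 6.74 on the arrays of 4 and 8 h and between 5.5 and 6.14 on those of 24 h, so levels were compared between the arms of 1 experiment and time. The share of genes above the background range was between 61.8% and 69.7% per array, with the range set as the 95th percentile of 1288 olfactory and vomeronasal receptor genes. All 32 mitosis genes lay above it on all 12 arrays, with the lowest value at 5.3.

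At 24 h the mitosis genes were lower in treated than in untreated cultures with both agents. With C26 medium all 32 were lower, where 48.6% of all genes were, and their log2 changes ran from -0.86 for Bub1b, a spindle checkpoint gene, to -0.40 for Cdk1, with a median of -0.66. The median gene of the group thus stood at 63.1% of its untreated level. A fall of at least 1.5-fold was seen for 23 of 32, where 1.29% of all genes showed one, and none of the 32 reached 2-fold, where 0.156% did. With LIF 31 of 32 were lower, where 42.9% of all genes were, with changes between -0.5 and 0 and a median of -0.30, or 81.2% of the untreated level. The gene without a change was Nusap1, which encodes a microtubule-bundling protein, and no mitosis gene was 1.5-fold lower with LIF, where 0.486% of all genes were. The median change over all genes was 0 at each time with each agent.

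The earlier times differed from 24 h. With LIF at 4 h, 26 of 32 mitosis genes were higher, 5 were equal and 1 was lower, with a median of 0.20, where 35.9% of all genes were higher and 30.9% lower. The highest changes at this time, 0.4, were those of Mad2l1 and Ttk, both of the spindle checkpoint, and the lowest was that of Cdc25c, the phosphatase that activates Cdk1, at -0.1. With LIF at 8 h, 19 were higher and 13 equal, with a median of 0.10, where 31.6% of all genes were higher and 33.2% lower. After quantile normalization 11 of the 32 were lower at this time. Ccnb2, a B-type cyclin gene, and Nusap1 had the highest change at 8 h, 0.3. With C26 medium, changes stayed between -0.28 and 0.15 at 4 and 8 h. There 23 genes were higher and 6 lower at 4 h, with a median of 0.05, where 46% of all genes were higher and 49.6% lower. At 8 h 10 were higher and 22 lower, with a median of -0.04, where 48.5% and 47.9% of all genes were. Ttk, a checkpoint kinase gene, was the highest of the 32 at 4 h (0.15) and the lowest at 8 h (-0.28), while Foxm1 was the lowest at 4 h (-0.08) and the centromeric histone gene Cenpa the highest at 8 h (0.12).

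**Figure D1:**
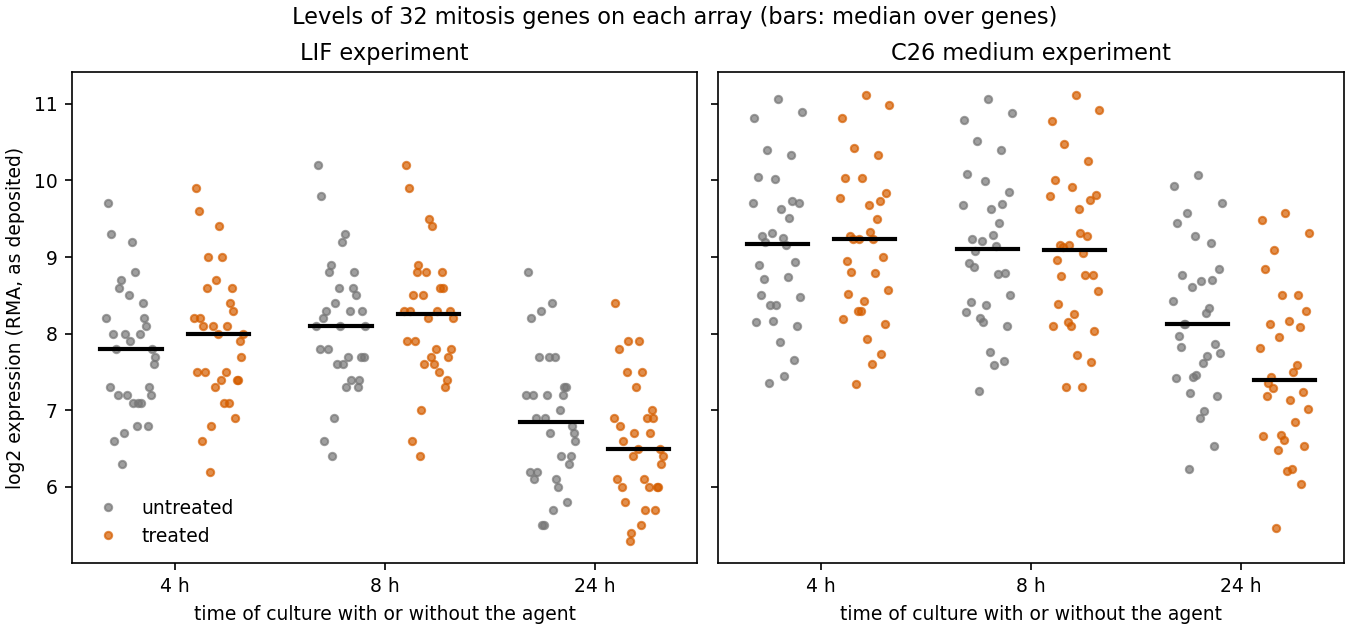
Log2 expression (vertical axis) of the 32 mitosis genes on each of the 12 arrays, grey for untreated and orange for treated, with the time of culture on the horizontal axis and bars at the median over genes. Medians of the treated and untreated arrays were 6.5 and 6.85 with LIF and 7.4 and 8.12 with C26 medium at 24 h, and differed by at most 0.20 at the earlier times.

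**Figure D2:**
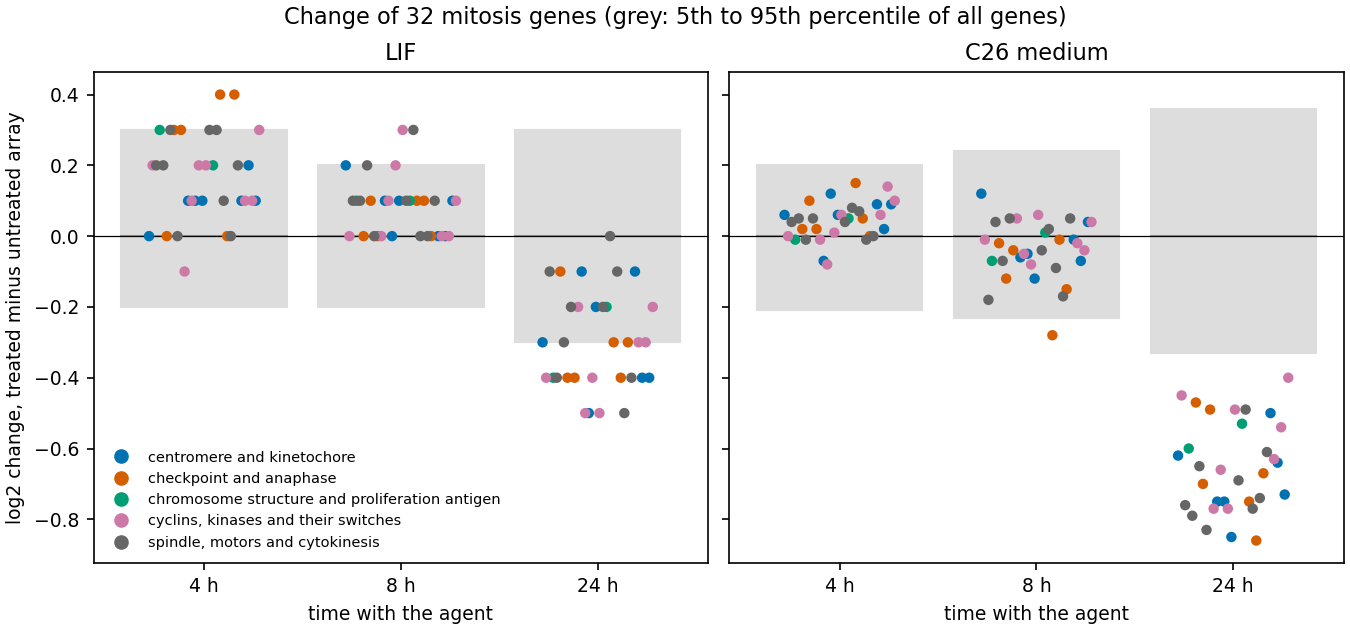
Log2 change, treated minus untreated array (vertical axis), of each mitosis gene at 4, 8 and 24 h with each agent, coloured by role, over a grey range that holds the 5th to 95th percentile of all genes. With C26 medium at 24 h all 32 points lie between -0.86 and -0.40, under the grey range; with LIF at 4 h 26 points lie above 0 and at 24 h 31 lie below it.

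Tests used limma across all 21187 genes with Benjamini-Hochberg adjustment and a threshold of 0.05. Since no group has replicate arrays, their spread is that of a response over the times or between the agents, which are not replicates, and p-values measure how alike the responses were. Averaged over the times, no mitosis gene passed with LIF, with a median of -0.02, or with C26 medium, with a median of -0.23. Among all genes, 0% passed with LIF, and with C26 medium 0.212% passed as higher and 0.00472% as lower. At an unadjusted p under 0.05, 0 of 32 were called with LIF, where 3.45% of all genes were higher and 3.37% lower. With C26 medium 3 of 32 were lower and none higher at that level, where 3.77% of all genes were lower and 3.71% higher. Cdca8, Kif23 and Spag5 were the 3, at -0.29 ± 0.12 (SE), -0.31 ± 0.13 and -0.30 ± 0.13, and their smallest adjusted p was 0.592. The difference between the agents in this average had a median of -0.17 over the 32, with no call and none at an unadjusted p under 0.05, where 2.5% of all genes were higher and 1.98% lower. Without 24 h the median of the average was 0.10 with LIF and 0.00 with C26 medium.

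The contrast of 24 h with the mean of 4 and 8 h separates those times. Its fit takes its spread from how alike the 4 and 8 h responses were, since each agent had 1 pair of arrays at 24 h. The p-values and SEs of this fit thus hold no measure of the spread at 24 h. For C26 medium the contrast was negative for all 32 mitosis genes, from -0.88 to -0.44 with a median of -0.65. All 32 had an unadjusted p under 0.05, where 6.27% of all genes were lower at that level. With experiment and time as additive terms the count was 21. No gene of the array passed after adjustment (smallest adjusted p 0.413, limma), in a fit with 2 residual degrees of freedom. For LIF it was negative for all 32 too, from -0.75 to -0.10 with a median of -0.48, and 24 were lower at an unadjusted p under 0.05, against 5.05% of all genes. Again none passed after adjustment, and the smallest adjusted p was 0.528. The early response to LIF, the mean of 4 and 8 h, had a median of 0.10, and 11 of 32 were higher at an unadjusted p under 0.05, against 3.88% of all genes, with no adjusted p under 0.665. These 11 included Nusap1 (0.30 ± 0.04, SE), Ccnb2 (0.25 ± 0.04) and Kif11 (0.25 ± 0.04), and none of the checkpoint or kinetochore genes. With additive terms this count was 2. The early response to C26 medium had a median of 0.00, with none of the 32 at an unadjusted p under 0.05, where 3.24% of all genes were higher and 2.35% lower.

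A further fit, added after these results were seen, took the shift at 24 h as 1 effect shared by both agents, so that the agents stand as repeats. Its adjusted p-values therefore rest on how alike the 4 and 8 h responses were within each agent. They also rest on the likeness of the shift between LIF and C26 medium. In it 11 of 32 mitosis genes passed as lower, where 0.118% of all genes did: Ccnb2, Plk1, Foxm1, Kif20a, Mki67, Kif11, Kif2c, Kif23, Ccna2, Cenpf and Nuf2. The array gave 25 lower and 7 higher genes (0.033%) in all, so 11 of the 25 were mitosis genes of the list. All 32 were negative, from -0.69 to -0.28 with a median of -0.55, and all had an unadjusted p under 0.05, where 5.52% of all genes were lower at that level. These calls depended on the setting: none of the 32 passed without 4 h, without 8 h, with eBayes without a variance trend, with additive terms or with the C26 values rounded to 1 decimal. Between 4 and 19 passed under the other alternatives.

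**Figure D3:**
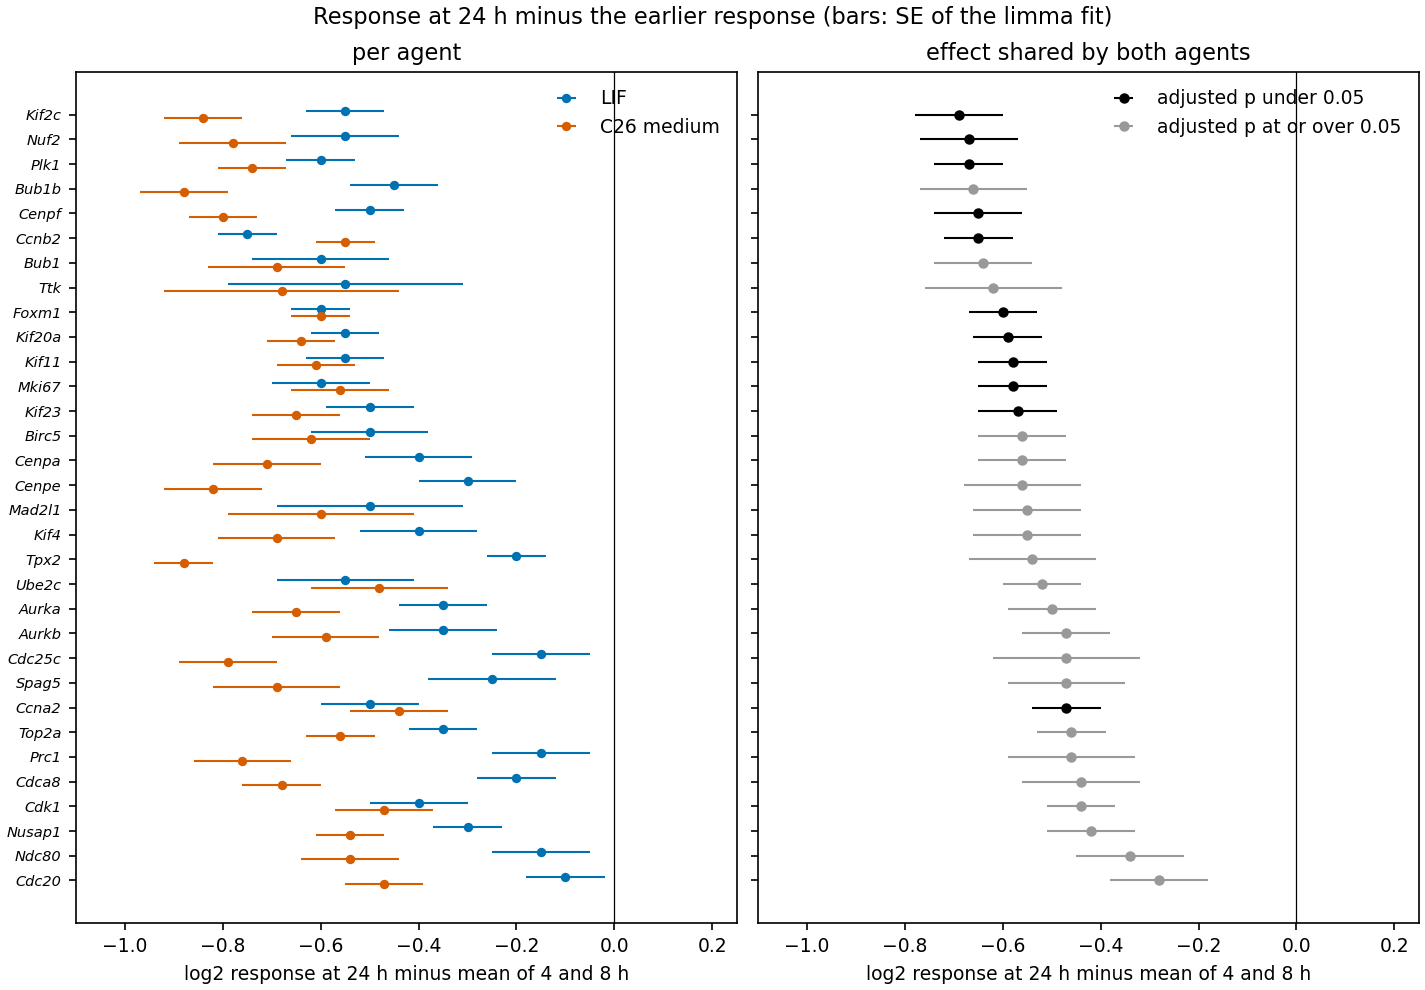
Log2 response at 24 h minus the mean response at 4 and 8 h (horizontal axis) of each mitosis gene (vertical axis), per agent on the left and as 1 effect shared by both agents on the right, with bars of 1 SE of the limma fits. All estimates lie below 0, and the 11 genes with an adjusted p under 0.05 in the shared fit are black.

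Promoters are shown for the 4 mitosis genes with the largest estimate in the shared fit, since they moved together, and for Ccnb2, which was added after its motifs had been seen. Each line holds the 250 bases before the transcription start on the gene's strand, 5′ to 3′, from RefSeq (GRCm38.p6), with capitals at 2 elements searched on both strands. The elements are the CHR element TTTGAA, which the MYB-MuvB and DREAM complexes are known to bind, and the CCAAT box, bound by NF-Y. The windows are chr4:117178773-117179022 (minus strand) for Kif2c, chr7:122159185-122159434 (plus) for Plk1, chr1:169531465-169531714 (minus) for Nuf2, chr2:118597961-118598210 (plus) for Bub1b and chr9:70421555-70421804 (minus) for Ccnb2.
Kif2c: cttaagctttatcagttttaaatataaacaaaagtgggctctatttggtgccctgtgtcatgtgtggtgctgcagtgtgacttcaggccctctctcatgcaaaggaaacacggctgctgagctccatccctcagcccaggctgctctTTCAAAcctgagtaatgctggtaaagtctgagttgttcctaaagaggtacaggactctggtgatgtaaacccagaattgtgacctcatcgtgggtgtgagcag
Plk1: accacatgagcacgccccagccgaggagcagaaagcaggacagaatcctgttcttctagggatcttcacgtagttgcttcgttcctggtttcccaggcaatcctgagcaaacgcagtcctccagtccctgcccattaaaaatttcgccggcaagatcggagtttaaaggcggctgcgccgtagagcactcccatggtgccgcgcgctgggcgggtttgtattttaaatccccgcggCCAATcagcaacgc
Nuf2: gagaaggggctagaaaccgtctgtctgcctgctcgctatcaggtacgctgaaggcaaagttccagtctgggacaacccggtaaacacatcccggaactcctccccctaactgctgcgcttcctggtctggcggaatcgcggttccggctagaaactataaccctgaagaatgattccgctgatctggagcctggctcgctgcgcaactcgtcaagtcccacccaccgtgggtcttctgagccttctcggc
Bub1b: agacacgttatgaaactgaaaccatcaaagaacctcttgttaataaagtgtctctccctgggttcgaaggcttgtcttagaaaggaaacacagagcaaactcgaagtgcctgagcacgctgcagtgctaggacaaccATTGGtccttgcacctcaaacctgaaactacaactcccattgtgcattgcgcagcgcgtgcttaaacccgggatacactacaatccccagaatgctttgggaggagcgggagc
Ccnb2: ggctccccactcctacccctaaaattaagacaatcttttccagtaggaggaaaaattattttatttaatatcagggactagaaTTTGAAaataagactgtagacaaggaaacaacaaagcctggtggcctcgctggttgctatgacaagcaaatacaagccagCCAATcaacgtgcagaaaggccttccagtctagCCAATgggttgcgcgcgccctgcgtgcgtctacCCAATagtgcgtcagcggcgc
The Ccnb2 window held a TTTGAA match, whose first base lies 167 bases before the start, and 3 CCAAT boxes at 87, 54 and 21 bases, spaced 33 bases apart. Plk1 had a CCAAT box at 14 bases, Bub1b one on the reverse strand at 113 bases, Kif2c a TTTGAA match on the reverse strand at 103 bases, and Nuf2 neither. Only TTTGAA was searched for as a CHR element, and bases after the start were not searched. A window without a match may thus still hold such an element. A window was listed for 26 of the 32 genes, 27 windows in all. TTTGAA occurred in 9 of these 27 windows (33.3%) and in 16% of the 32851 windows of all genes, CCAAT in 21 (77.8%) and in 33.8%, and both in 8 (29.6%) and in 5.55%. The genes with both were Ccnb2, Cdc20, Cdk1, Kif11, Mki67, Prc1, Top2a and Ube2c. These are matches of letters and not measured sites of binding.

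Cyclins, kinases and their switches came first in the order of mitosis, and all 8 were lower at 24 h with both agents. Ccna2, the cyclin of S phase and of entry into mitosis, stood at 9.7, 10.2 and 8.8 (4, 8 and 24 h) in untreated cultures of the LIF experiment and at 9.9, 10.2 and 8.4 with LIF. In the C26 experiment it was at 10.82, 10.79 and 9.93 untreated and at 10.82, 10.78 and 9.48 with conditioned medium. In the LIF experiment the arms of Ccna2 thus met at 8 h, and in the C26 experiment they were equal at 4 h and close at 8 h. At 24 h the arms differed by -0.4 and -0.45. Ccna2 fell by 0.47 ± 0.07 in the shared fit (SE, limma adjusted p 0.0456). Ccnb2 was at 9.2, 9.2 and 8.4 untreated and at 9.4, 9.5 and 7.9 with LIF. In the C26 experiment its values were 11.06, 11.06 and 10.07 untreated and 11.12, 11.12 and 9.58 with conditioned medium. Higher in the treated arm at both early times and lower at 24 h in both experiments, Ccnb2 had a shared fall of 0.65 ± 0.07 (SE, limma adjusted p 0.0229). For Cdk1, the kinase that drives mitosis, the LIF experiment gave 7.7, 8.1 and 6.6 untreated and 8.0, 8.2 and 6.4 treated. The C26 experiment gave 10.89, 10.88 and 9.71 untreated and 10.99, 10.92 and 9.31 treated. Cdk1 had the smallest change of the 32 with C26 medium at 24 h, and its shared estimate of -0.44 ± 0.07 did not pass (SE, limma adjusted p 0.0827).

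Plk1, the Polo kinase of centrosomes and spindle, was at 8.5, 8.6 and 7.7 untreated and at 8.7, 8.8 and 7.3 with LIF. It was at 10.02, 9.99 and 9.28 untreated and at 10.03, 9.91 and 8.51 with C26 medium. The treated arm was lower at 24 h in both experiments, and Plk1 fell by 0.67 ± 0.07 in the shared fit (SE, limma adjusted p 0.0229). Foxm1, the forkhead factor that activates many genes of late cell cycle, stood at 8.0, 8.4 and 6.9 untreated and at 8.1, 8.5 and 6.4 with LIF. With C26 medium it stood at 9.23, 9.16 and 7.95, against 9.31, 9.21 and 8.61 untreated. Its fall in the shared fit was 0.60 ± 0.07 (SE, limma adjusted p 0.0285), and per agent both estimates were -0.60. The Aurora kinase genes Aurka, of centrosomes, and Aurkb, of the chromosomal passenger complex, were each lower by 0.3 with LIF at 24 h, and by 0.63 and 0.54 with C26 medium. Cdc25c was lower by 0.77 with C26 medium and by 0.2 with LIF.

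Among the 6 genes of the spindle checkpoint and anaphase, all were lower at 24 h with both agents, and none passed in the shared fit. Ube2c encodes the ubiquitin-conjugating enzyme of the anaphase-promoting complex. Its values were 8.7, 8.9 and 8.3 untreated and 9.0, 8.9 and 7.9 with LIF, and 10.4, 10.51 and 9.58 untreated and 10.42, 10.47 and 9.09 with C26 medium. Mad2l1, the checkpoint protein that binds Cdc20, was at 8.2, 8.8 and 7.3 untreated and at 8.6, 8.8 and 7.0 with LIF. Mad2l1 was at 10.33, 10.4 and 9.18 untreated and at 10.33, 10.25 and 8.51 with C26 medium. Its LIF arm was higher at 4 h, equal at 8 h and lower at 24 h, and its shared estimate was -0.55 ± 0.11 (SE, limma adjusted p 0.129). The kinetochore kinase gene Bub1 was at 7.2, 7.8 and 6.2 untreated and at 7.5, 7.9 and 5.8 with LIF. It was at 8.71, 8.87 and 8.13 untreated and at 8.81, 8.75 and 7.43 with C26 medium. At -0.64 ± 0.10, Bub1 came nearest to passing among these 6 (SE, limma adjusted p 0.0514). Bub1b, which encodes the checkpoint protein BubR1, went from 7.71 untreated to 6.85 with C26 medium at 24 h, or 55.1% of its untreated level, the lowest share of the 32. Ttk was at 59.5% and Cdc20, the activator of the anaphase-promoting complex, at 72.2%, and with LIF these were 81.2% and 93.3%.

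The 7 genes of centromere and kinetochore were all lower at 24 h, with medians of -0.30 with LIF and -0.73 with C26 medium. Cenpa, the histone H3 variant of centromeres, was at 8.2, 8.1 and 7.2 untreated and at 8.2, 8.3 and 6.9 with LIF. In the C26 experiment it was at 9.71, 9.68 and 8.43 untreated and at 9.77, 9.8 and 7.81 treated. Cenpa was thus not lower at the early times in either experiment. Cenpe, the kinesin motor of kinetochores, stood at 7.9, 8.1 and 6.7 untreated and at 8.0, 8.2 and 6.5 with LIF. With C26 medium it stood at 8.43, 8.26 and 6.61, against 8.37, 8.38 and 7.46 untreated. Its difference of -0.85 with C26 medium at 24 h, against -0.2 with LIF, left it at 55.5% and 87.1% of the untreated level. Cenpf, a large coiled-coil protein of kinetochores, was at 7.6, 7.7 and 6.7 untreated and at 7.7, 7.8 and 6.3 with LIF. It was at 8.48, 8.51 and 7.75 untreated and at 8.57, 8.55 and 7.02 with C26 medium. Slightly higher in the treated arm at 4 and 8 h and lower at 24 h in both experiments, Cenpf fell by 0.65 ± 0.09 in the shared fit (SE, limma adjusted p 0.0456). Nuf2, a subunit of the Ndc80 complex that holds microtubules, was at 7.2, 7.6 and 7.2 untreated and at 7.3, 7.6 and 6.7 with LIF. It was at 8.17, 8.15 and 7.43 untreated and at 8.29, 8.1 and 6.68 with C26 medium. Nuf2 fell by 0.67 ± 0.10 (SE, limma adjusted p 0.0488). Birc5 (survivin) and Cdca8 (borealin), subunits of the chromosomal passenger complex, were lower by 0.4 and 0.1 with LIF and by 0.64 and 0.75 with C26 medium at 24 h. Ndc80, the partner of Nuf2, was lower by 0.1 and 0.50.

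Spindle, motor and cytokinesis genes had a median of -0.20 with LIF and -0.74 with C26 medium at 24 h, and 8 of 9 were at least 1.5-fold lower with C26 medium. Kif20a, a kinesin of the midzone, was at 8.1, 8.5 and 7.3 untreated and at 8.3, 8.6 and 6.9 with LIF. Kif20a was at 9.73, 9.69 and 8.7 untreated and at 9.73, 9.74 and 8.09 with C26 medium. It fell by 0.59 ± 0.07 in the shared fit (SE, limma adjusted p 0.031). Tpx2, the activator of Aurora A on spindle microtubules, was at 8.6, 8.8 and 7.7 untreated and gave 8.6, 8.8 and 7.5 with LIF. In the C26 experiment Tpx2 was at 9.19, 9.08 and 8.12 untreated and at 9.24, 9.13 and 7.29 treated. Its arms were equal at 4 and 8 h with LIF, and its 24 h change was -0.2 with LIF and -0.83 with C26 medium. Kif23, the motor of the centralspindlin complex, was at 8.4, 8.6 and 7.2 untreated and at 8.4, 8.6 and 6.7 with LIF. It was at 9.51, 9.44 and 8.33 untreated and at 9.5, 9.27 and 7.59 with C26 medium. Kif23 was the gene of this role with the lowest LIF change at 24 h, -0.5, and it fell by 0.57 ± 0.08 in the shared fit (SE, limma adjusted p 0.0456).

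Kif11 (Eg5), the motor that pushes spindle poles apart, stood at 7.8, 8.3 and 6.9 untreated and at 8.1, 8.5 and 6.6 with LIF. It stood at 9.28, 9.23 and 8.77 untreated and at 9.27, 9.16 and 8.12 with C26 medium, and its shared fall was 0.58 ± 0.07 (SE, limma adjusted p 0.0362). Kif2c (MCAK), which takes microtubule ends apart, had values of 8.0, 8.2 and 7.2 untreated and 8.2, 8.3 and 6.8 with LIF. With C26 medium it had 8.95, 8.96 and 7.18, against 8.9, 8.92 and 7.97 untreated. Higher in the treated arm at both early times and lower at 24 h, Kif2c had the largest shared fall of the 32, 0.69 ± 0.09 (SE, limma adjusted p 0.0362). Prc1, which bundles midzone microtubules, was lower by 0.77 with C26 medium and by 0.1 with LIF at 24 h. For Spag5 (astrin), a spindle and kinetochore protein, these were 0.76 and 0.1, and for the chromokinesin gene Kif4 0.69 and 0.2. Nusap1 was lower by 0.49 with C26 medium.

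Mki67 and Top2a act on chromosomes. Mki67 encodes Ki-67, which coats mitotic chromosomes and marks cycling cells, and stood at 9.3, 9.8 and 8.2 untreated and at 9.6, 9.9 and 7.8 with LIF. It stood at 10.04, 10.08 and 9.44 untreated and at 10.03, 10.01 and 8.84 with C26 medium. Mki67 fell by 0.58 ± 0.07 in the shared fit (SE, limma adjusted p 0.0326), with estimates of -0.60 for LIF and -0.56 for C26 medium. Top2a, the topoisomerase that untangles sister chromatids, was at 8.8, 9.3 and 7.7 untreated and at 9.0, 9.4 and 7.5 with LIF. It was at 9.63, 9.62 and 8.69 untreated and at 9.68, 9.63 and 8.16 with C26 medium. Its shared estimate of -0.46 ± 0.07 did not pass (SE, limma adjusted p 0.0708).

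The 24 h change was lower with C26 medium than with LIF for 31 of 32 mitosis genes, and 31 were lower with both agents, where 20.2% of all genes were. The difference, C26 medium minus LIF, had a median of -0.34 and ran from -0.67 to 0.01, with Ccnb2 alone at the upper end. Across the 32 genes, the change with one agent told little of that with the other, since Pearson's r was 0.10 and Spearman's rho 0.02, with LIF values in steps of 0.1 and no array shared. As a share of genes at least as low, 0.788% of all genes lay at or below the median of the 32 with C26 medium and 8.22% with LIF. The difference at 24 h itself has no test. In the contrast of 24 h with the earlier times, the difference between agents had a median of -0.24, and 9 of 32 were lower with C26 medium at an unadjusted p under 0.05, where 4.69% of all genes were. After quantile normalization the median was -0.14 and the count 5, and with additive terms the median was -0.08 and the count 8. None passed after adjustment (limma, smallest adjusted p 0.516). The 9 were Tpx2, Cdc25c, Cdca8, Prc1, Cenpe, Bub1b, Cdc20, Cenpf and Ndc80. Tpx2 had the largest difference, -0.68 ± 0.08 (SE), followed by Cdc25c at -0.64 ± 0.14 and Prc1 at -0.61 ± 0.14. At the other end 5 of the 32 lay above 0 before rounding, from Foxm1 at 0.00 ± 0.09 to Ccnb2 at 0.20 ± 0.09. Doses of the agents are not on a common scale, and each experiment had its own arrays.

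**Figure D4:**
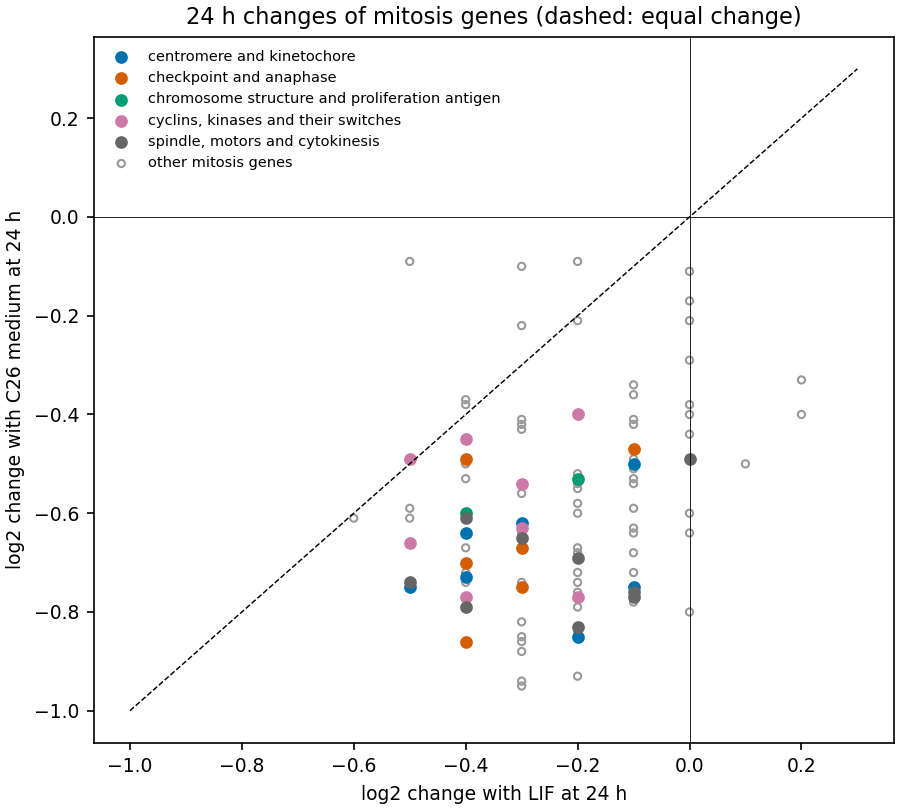
Log2 change at 24 h with LIF (horizontal axis) and with C26 medium (vertical axis) of the 32 mitosis genes, coloured by role, and of 74 other mitosis genes (open circles), with a dashed line at equal change. Of the 32, 31 lie under the line, and all lie below 0 on the vertical axis.

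The mitosis genes also differed between times within the untreated cultures. In the LIF experiment 29 of 32 were higher at 8 h than at 4 h, where 37.1% of all genes were, with a median difference of 0.40 and a median over all genes of 0. The LIF change at 4 h rests on the same untreated 4 h array, and 28 of the 32 LIF-treated values at 4 h were at or below the untreated value at 8 h. In the C26 experiment the same median difference was -0.01, and 49.4% of all genes were higher. From 4 to 24 h the median difference over all genes was -0.50 in the untreated LIF experiment and -0.54 in the untreated C26 experiment. The scaling of the 24 h arrays may differ from that of the earlier arrays, so this shift cannot be read as a change of the genes. Relative to that shift the median of the 32 was lower by a further 0.45 and 0.39, with 29 and 30 of the 32 below the median of all genes, where 43.8% and 49.2% of all genes were. The exceptions included Nuf2, whose untreated value in the LIF experiment was 7.2 at both 4 and 24 h. In the treated arms the relative medians were -0.90 with LIF and -1.11 with C26 medium, and all 32 lay below the median of all genes. After quantile normalization the relative medians were -0.33 untreated and -0.84 treated in the LIF experiment. In the C26 experiment they were then -0.32 and -0.97. These are differences of 1 array from another and were not tested.

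Other genes of cell division were followed as lists. Of 77 further mitosis genes (kinetochore, condensin, kinesin and checkpoint genes) 74 were measured. At 24 h, all 74 were lower with C26 medium, 38 by at least 1.5-fold, with a median of -0.59, and 61 were lower and 3 higher with LIF, with a median of -0.20. In the shared fit all 74 were negative, with a median of -0.46. At an unadjusted p under 0.05, 63 of them were lower, where 5.52% of all genes were. After adjustment 4 of the 74 passed as lower, where 0.118% of all genes did. These were the cytokinesis genes Anln (-0.59 ± 0.08, SE) and Racgap1 (-0.45 ± 0.06), the cohesin protector gene Sgo2a (-0.59 ± 0.09) and the Cdk subunit gene Cks1b (-0.57 ± 0.08). Their limma adjusted p was between 0.0419 and 0.049. Of the 12 alternatives, Anln, Racgap1 and Cks1b passed in 6 and Sgo2a in 5, and the adjusted p of each reached 1. DNA replication and S phase genes, 46 in number, had medians of -0.20 with LIF and -0.30 with C26 medium at 24 h, and 45 were lower with C26 medium. Pole, the catalytic subunit of a replicative polymerase, was at -0.5 and -0.71, Tyms, thymidylate synthase, at -0.4 and -0.67, and the ligase gene Lig1 at -0.6 and -0.51. At 4 h of LIF, 42 of these 46 were higher and none lower, with a median of 0.25, where 35.9% of all genes were higher and 30.9% lower. The thymidine kinase gene Tk1 was highest at 0.7. These changes rest on the same untreated 4 h array as those of the mitosis genes. Tk1 was at 7.2 untreated and 7.9 with LIF at 4 h, and at 8.1 untreated at 8 h. None of the 46 passed in any limma contrast, and 27 were lower at an unadjusted p under 0.05 in the shared fit.

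Subunits and regulators of the anaphase-promoting complex, 15 genes, had medians of 0.00 and -0.06 at 24 h with LIF and C26 medium, and 2 of the 15 were lower at an unadjusted p under 0.05 in the shared fit, where 5.52% of all genes were. The inhibitor gene Fbxo5 (Emi1) was the lowest with C26 medium at -0.70, against -0.2 with LIF. For 19 genes of E2F, MYB and DREAM factors the medians were -0.10 and -0.11. Of the 19, 11 were lower with LIF and 14 with C26 medium, where 42.9% and 48.6% of all genes were. Higher were 2 and 5 of them. The repressor gene E2f7 was at -0.4 and -0.67, Mybl1 at -0.1 and -0.58 and Mybl2 at -0.2 and -0.06. The 13 D-type cyclins, their kinases and the Cdk inhibitors had medians of 0.00 and -0.08. Among them Ccnd1, cyclin D1, which carries growth signals to the cycle, was at 7.0 untreated and 6.3 with LIF at 24 h and at 9.38 and 8.37 in the C26 experiment. It fell by 0.72 ± 0.11 in the shared fit (SE, limma adjusted p 0.049), a call made in 6 of the 12 alternatives. In the same list the Cdk inhibitor gene Cdkn1b was at 0.4 with LIF and 0.06 with C26 medium, and Cdkn1c, another, at 0.0 and -0.39. The inhibitor gene Cdkn2c, at 0.4 and -0.09, and the kinase gene Cdk6, at 0.4 and 0.18, had the same LIF change as Cdkn1b. Apart from Ccnd1, no gene of this list passed. The medians of all these lists were closer to 0 at 24 h than those of the 32 mitosis genes, -0.30 with LIF and -0.66 with C26 medium. The other mitosis genes came nearest with C26 medium, at -0.59, and with LIF they and the replication genes were both at -0.20. The difference between lists was not tested.

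**Figure D5:**
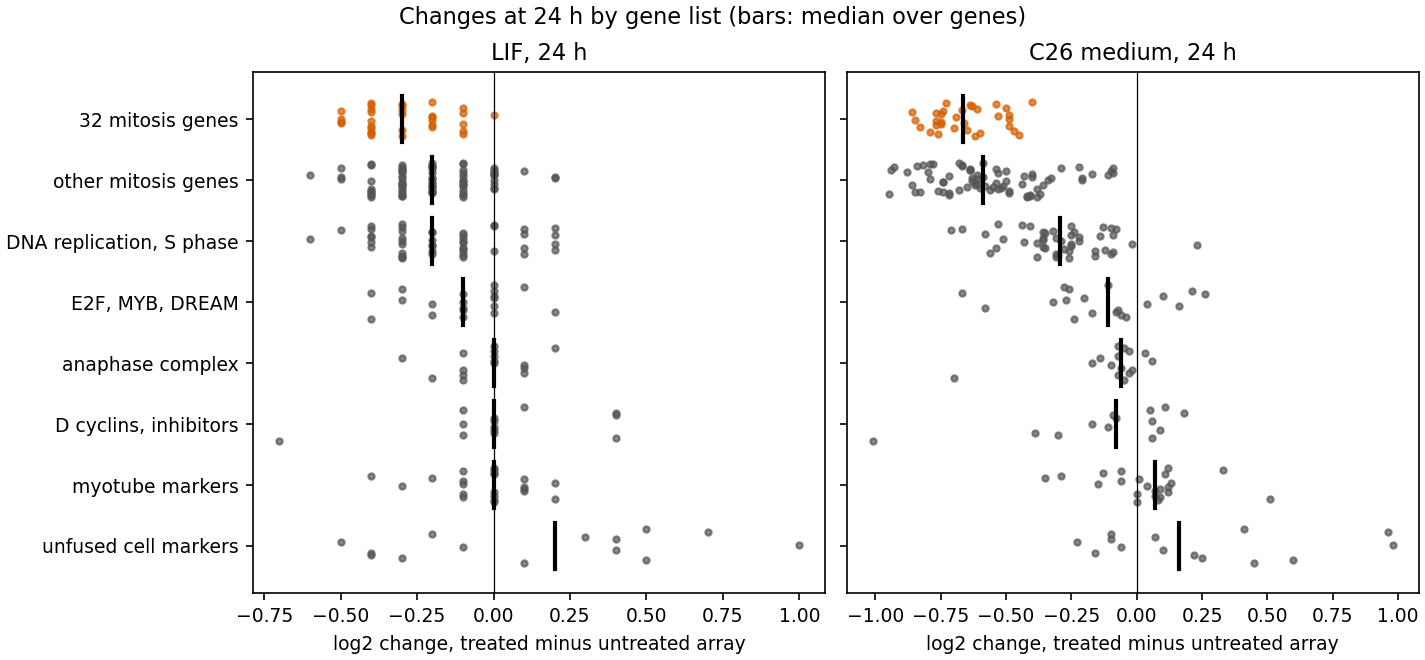
Log2 change at 24 h, treated minus untreated (horizontal axis), of each gene of 8 lists with LIF and with C26 medium, with bars at the median of a list. With C26 medium the medians are -0.66 for the 32 mitosis genes and -0.59 for other mitosis genes, then -0.30 for replication, -0.11 for E2F, MYB and DREAM factors and 0.07 for myotube markers.

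Markers of cell types were read beside these changes. All 22 myotube markers lay above background on all arrays, and their median changes at 24 h were 0.00 with LIF and 0.07 with C26 medium. Of 14 markers of unfused mononucleated cells and fibroblasts, 12 lay above background on all arrays and Lum was in the background range on all. The log2 of their summed level ran from 12.63 to 13.23 in untreated and 12.86 to 13.33 in LIF arrays, and from 13.75 to 14.05 and 14.04 to 14.2 in the C26 experiment. At 24 h it moved from 12.63 to 12.86 with LIF and from 13.75 to 14.04 with C26 medium. Such a sum weighs bright genes most, among them Ly6a, which went from 9.8 to 10.5 with LIF and from 11.22 to 12.18 with C26 medium. It is not a count of unfused cells. Gene by gene, 8 were higher and 6 lower with LIF and 9 higher and 5 lower with C26 medium at 24 h, with the receptor gene Pdgfrb at -0.5 and -0.23, Cd34 at -0.4 and -0.16 and the collagen gene Col1a1 at -0.2 and -0.10. The matrix proteoglycan gene Dcn rose by 0.85 ± 0.10 and the surface antigen gene Ly6a by 0.65 ± 0.09 in the shared fit (SE, limma adjusted p 0.0277 and 0.0468), passing in 7 and 6 of the 12 alternatives, with an adjusted p of up to 1 for both. The myoblast genes Pax7 and Myf5 stood at 0.1 and 0.4 with LIF and at 0.45 and -0.10 with C26 medium. Their part in the changes of the mitosis genes was not tested. Of 14 markers of colon carcinoma epithelium, 6 lay above background on all 12 arrays, among them Cdh1 and Krt19, and Epcam, Krt20, Vil1 and Cldn7 were in the background range on all. Their median changes at 24 h were -0.1 with LIF and 0.10 with C26 medium, where the mean was -0.01. Of 10 markers of macrophages and leukocytes, 3 lay above background on all arrays, and Ptprc, Adgre1, Csf1r, Itgam and Lyz2 were in the background range on all, with median changes of -0.1 and 0.0.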

How the data were processed

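Gene expression was measured on 12 Affymetrix mouse gene 1.0 ST arrays, grouped by their titles. The authors deposited log2 values for 21187 Entrez genes; RMA is the method named in the submitters' processing notes, and the genome build is not given in the sources used here. Signed fold changes in the authors' deposited tables, a score per gene, were used as an alternative, and 12 per-sample columns of those tables were not used. Symbols came from these tables and, by Entrez identifier, from RefSeq (20819 matched).

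Values were used as deposited, without a filter. In R 4.3.3, limma 3.58.1 models (lmFit, then eBayes with a trend) had each treated and untreated pair as a block: 1 fit with a treatment effect per agent (4 residual degrees of freedom), 1 with early and late effects per agent (2), and 1, added after the data were seen, with a shared late effect (3). Benjamini-Hochberg adjustment covered all genes. The fits with effects per agent were tested on simulated data, and the fit with a shared late effect was not. Members and lists were chosen with earlier results of these data known. Values per array are given for the 3 members of each role with the highest mean level and for each called member; further members are named for the highest or lowest change, and from each other list the called genes or those with the largest 24 h changes. Cdkn1b, Cdkn2c, Cdk6, Pax7, Myf5, Pdgfrb, Cd34, Col1a1, Cdh1, Krt19, Tk1, Mybl1 and Mybl2 were named after their values were seen. So were the genes of the difference between agents and the Ccnb2 promoter. Alternatives were quantile normalization, centring, filters on the dimmest 25% or 50%, eBayes without trend or robust, a threshold of 0.10, additive terms, rounding to 1 decimal, the authors' fold changes, and each time left out.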

Additional observations from a re-analysis of the deposited data

How the results depend on the processing

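No paired analysis by replicate number was possible because the labels give no replicate numbers; the treated and untreated arrays of each experiment and time, paired by their labels, were the block of every fit but the alternative with additive terms. The median shift at 24 h of the 32 genes stayed negative for LIF, for C26 medium, for their difference and for the shared effect under every alternative run. The median of the LIF response averaged over the times, -0.02, was 0.10 without 24 h. The count of mitosis genes called in the shared fit, 11, was 0 with eBayes without trend, with additive terms, with C26 values rounded to 1 decimal, without 4 h and without 8 h, 4 with the authors' deposited fold changes, 18 at a threshold of 0.10 and 19 with robust eBayes; the cause was not tested, except that leaving out a time leaves fewer arrays. Over the 12 alternatives the adjusted p ran from 0.00381 to 0.864 for Ccnb2 and Plk1 and reached 1 for the other 9. With additive terms the early LIF response had 2 genes (11 before) and the C26 shift at 24 h 21 (32 before) at an unadjusted p under 0.05. Quantile normalization gave 1 called gene in the LIF shift at 24 h (0 before), 5 genes (9 before) in the difference between agents, whose median ran from -0.24 to -0.08 (additive terms), and 2 lower genes at 4 h (1 before) and 11 at 8 h (0 before) with LIF. With the authors' deposited fold changes 0 genes were lower at 4 h with LIF. At a fold of 2 in place of 1.5, 0 genes were past it with C26 medium at 24 h (23 before). Without 4 h or without 8 h the fits per agent had no residual degrees of freedom and gave no test; the median shift was then -0.58 and -0.68 with C26 medium and -0.40 and -0.50 with LIF. Arrays without replicates, values of the LIF experiment in steps of 0.1, and few residual degrees of freedom limit each of these results.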
